A study of Mus musculus with 13 samples.

Results

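Liver sinusoidal endothelial genes are the genes that mark the fenestrated endothelium lining the hepatic sinusoids. The 10 genes described here were selected on knowledge of this cell type and on measured values: 8 are markers of the cell type, and Ptprb and Cavin2 were chosen by their lower counts with Dox in ASAH+ mice. They are 10 of the 53392 genes in the count table, and all 10 passed the count filter that left 14317 genes for testing. Whole-liver RNA of 13 female mice aged 8 to 14 weeks was measured by RNaseq. Every mouse was homozygous for a loxP-stop-loxP-rtTA allele at Rosa26 and for Albumin-Cre, so that the Dox-dependent activator rtTA was present in hepatocytes, and took 28% of its calories as ethanol for 4 weeks. Animals lacking the transgene and fed Etoh-Dox (ASAH- Etoh-Dox, 4 mice) were set beside transgenic animals fed either Etoh-Dox (ASAH+ Etoh-Dox, 5 mice) or Etoh without Dox (ASAH+ Etoh, 4 mice). ASAH+ mice carry the acid ceramidase gene behind a Dox-responsive TRE promoter, and Dox was given at 200 mg/l. The titles of the ASAH+ samples state the opposite Dox treatment from their descriptions and induction labels, and the descriptions and induction labels were used. Counts on genes totalled 17819486 in the shallowest library and 35358711 in the deepest, and the fewest reads on a member in a mouse were 119, for Lyve1. The transgene is driven in hepatocytes, not in the endothelium, and the library of each mouse mixes the RNA of all liver cells.

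Sinusoidal endothelial cells lack a continuous basement membrane and carry open pores through which plasma reaches the hepatocytes. They clear waste macromolecules and small immune complexes from blood through scavenger, lectin and Fc receptors, and they depend on vascular endothelial growth factor (VEGF) signals from hepatocytes. Several of the members are also made by other cells: Lyve1 by lymphatic endothelium and some macrophages, Stab1 and Fcgr2b by macrophages, and Pecam1, Kdr, Ptprb and Cavin2 by endothelium of other vessels.

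As a check of the labels, Asah1 (acid ceramidase) was measured in every mouse. Its level was 48.7, 40.0, 53.7 and 55.0 CPM, which are counts scaled to a common library total, in ASAH- Etoh-Dox mice and 46.8, 44.2, 46.8 and 48.3 CPM in ASAH+ Etoh mice. In ASAH+ Etoh-Dox mice it was 10314, 9668, 15134, 12725 and 15935 CPM. The 5 mice labelled as induced were far above the other 8, which follows the descriptions and goes against the titles.

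The markers of the cell type were present in every mouse. Per kilobase of exon, Clec4g had the highest level, 16.0 ± 3.89 CPM per kb (SD, n = 13), followed by Oit3 at 7.76 ± 2.18, Fcgr2b at 6.90 ± 1.76 and Cavin2 at 5.34 ± 1.14 CPM per kb. The other 6 members lay close together, from 3.92 ± 0.999 CPM per kb for Ptprb down to 2.75 ± 0.633 for Pecam1, with Stab2, Kdr, Stab1 and Lyve1 between them. Clec4g was above Oit3 in 13 of 13 mice. Ptprb was above Stab2 in 7 of 13 mice, and Lyve1 was above Pecam1 in 8 of 13, so that these neighbours in the order did not differ beyond their spread. With the longest coding transcript as length in place of all exons, 8 of the 10 ranks changed, Clec4g stayed first and Pecam1 moved from rank 10 to rank 6.

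**Figure D1:**
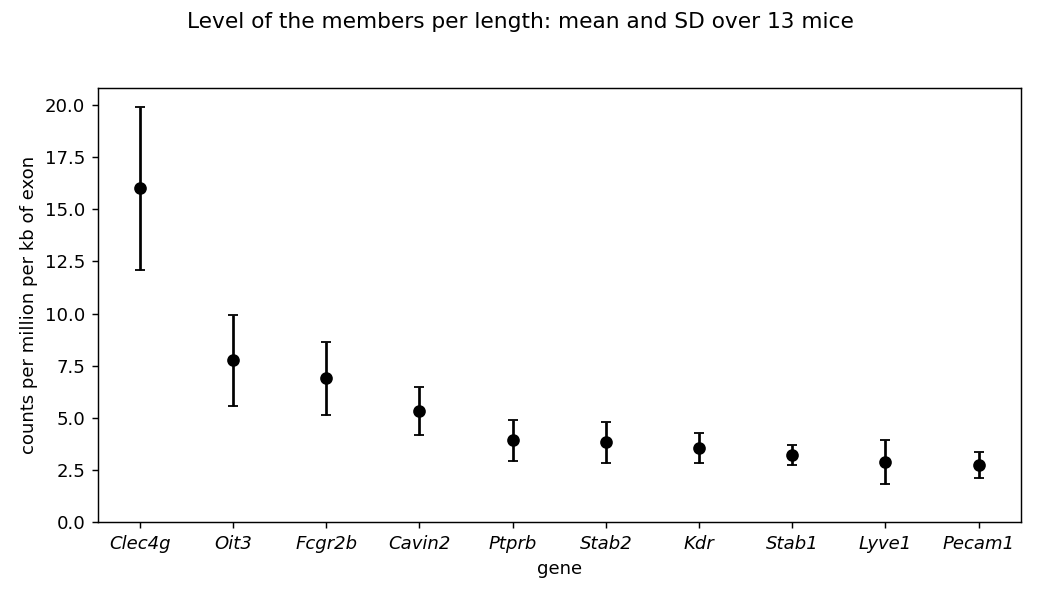
Mean level (points) and SD over 13 mice (bars) of the 10 members, in CPM per kb of merged exon, ordered by mean. Clec4g stands above the rest, and the SD bars of the last 6 genes overlap.

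The levels of most members were correlated across the mice, and the sequence before their starts is shown. Promoter windows of 250 bases before the gene start were available from RefSeq (GRCm38.p6) for 6 of the 10 members, and the 3 that overlapped no annotated exon are shown. Capitals mark matches on either strand to GGAAG, the core that ETS factors bind, and adjacent matches may share a base.
Cavin2, chr1:51288876-51289125, plus strand: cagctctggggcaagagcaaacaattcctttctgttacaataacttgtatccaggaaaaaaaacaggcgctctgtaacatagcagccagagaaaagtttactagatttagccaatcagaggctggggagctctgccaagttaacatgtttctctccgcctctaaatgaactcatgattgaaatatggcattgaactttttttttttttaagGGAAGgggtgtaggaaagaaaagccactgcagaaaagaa
Stab1, chr14:31168642-31168891, minus strand: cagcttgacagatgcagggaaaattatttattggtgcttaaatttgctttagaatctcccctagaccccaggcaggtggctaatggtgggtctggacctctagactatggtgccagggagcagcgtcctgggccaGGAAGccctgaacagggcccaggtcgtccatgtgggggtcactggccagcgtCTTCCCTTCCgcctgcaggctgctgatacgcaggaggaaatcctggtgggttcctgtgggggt
Clec4g, chr8:3720652-3720901, minus strand: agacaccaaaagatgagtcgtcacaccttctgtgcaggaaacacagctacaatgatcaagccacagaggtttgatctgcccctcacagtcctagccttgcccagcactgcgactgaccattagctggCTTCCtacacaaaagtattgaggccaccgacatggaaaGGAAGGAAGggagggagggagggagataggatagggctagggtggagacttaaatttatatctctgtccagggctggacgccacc
GGAAG was present in 6 of 6 member windows and in 64.1% of the 32851 promoter windows of the table. AGATAA, a motif that GATA factors bind, was present in 0 of 6 and in 9.99% of all windows. Only this word was searched, so other forms of a GATA site are not counted. A match is a description of letters and not of binding.

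Ptprb and Cavin2 are described without a test, since they were picked on these mice. Ptprb (chr10:116275523-116389535, plus strand, GRCm38) encodes VE-PTP, a receptor phosphatase that acts on the angiopoietin receptor Tie2 and on VE-cadherin. Its level was 37.2, 40.3, 33.4, 48.8 and 47.7 CPM in ASAH+ Etoh-Dox mice and 75.2, 53.8, 65.0 and 73.4 CPM in ASAH+ Etoh mice. In ASAH- Etoh-Dox mice it was 52.4, 40.2, 61.4 and 51.3 CPM. The ASAH+ Etoh-Dox mice were all below the ASAH+ Etoh mice, and the ASAH- mice lay between, overlapping both. The log2 fold change of Ptprb was -0.69 (SE 0.14) with against without Dox in ASAH+ mice, -0.31 (SE 0.14) in ASAH+ against ASAH- Etoh-Dox mice, and -0.38 (SE 0.15) in ASAH- Etoh-Dox mice against ASAH+ Etoh mice.

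Cavin2 (chr1:51289126-51302960, plus strand) encodes a coat protein of caveolae, the small invaginations of the plasma membrane. Its level was 13.5, 13.6, 12.4, 13.7 and 12.6 CPM in ASAH+ Etoh-Dox mice and 21.3, 17.0, 19.5 and 22.3 CPM in ASAH+ Etoh mice. In ASAH- Etoh-Dox mice it was 18.9, 14.03, 14.3 and 18.9 CPM, with 2 mice near the induced ASAH+ mice and 2 near the ASAH+ Etoh mice. The ASAH+ Etoh-Dox mice were the lowest of the 3 groups, with no overlap with either. The log2 fold change was -0.60 (SE 0.11) with against without Dox in ASAH+ mice, -0.33 (SE 0.11) in ASAH+ against ASAH- Etoh-Dox mice and -0.27 (SE 0.12) in ASAH- Etoh-Dox mice against ASAH+ Etoh mice.

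**Figure D2:**
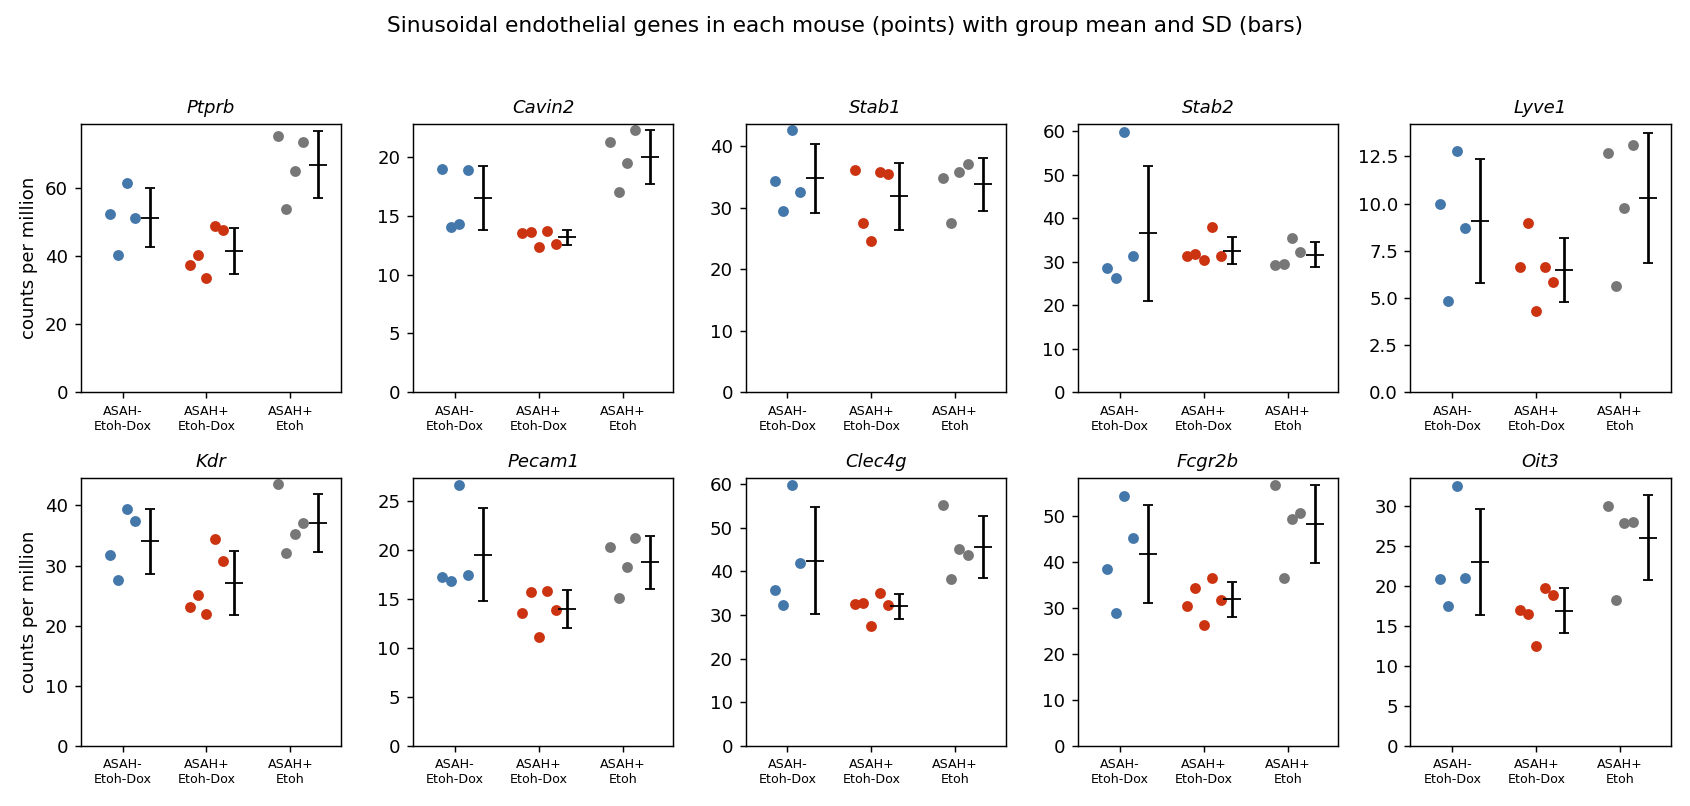
Level of the 10 members in each mouse (points, CPM, axes from 0) by group, with the group mean and SD beside the points. ASAH- Etoh-Dox mouse 3 is the high point of that group for most members.

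The other 8 members were tested in the comparisons that did not pick Ptprb and Cavin2. The first of these shares its ASAH+ Etoh-Dox mice with the contrast that did. Most members also followed each other across mice, so its counts are not independent of that choice. The first comparison asks what the transgene does under the same diet and Dox: ASAH+ against ASAH- Etoh-Dox mice. Each of the 8 members tested had a negative log2 fold change, Stab2 only with ASAH- mouse 3 included, with a median of -0.40 against -0.00225 over all genes tested. Of the 8 members tested, 5 were lower at an unadjusted p under 0.05 (Pecam1, Clec4g, Fcgr2b, Oit3 and Kdr) and 0 were higher, while 1.57% of the 14317 genes were lower at this level and 1.29% were higher. By exact permutation over mice, unadjusted, 2 of these 5 were under 0.05 (Pecam1 and Clec4g). The exact permutation p was 0.0635 for Oit3, 0.0952 for Kdr, 0.111 for Fcgr2b, 0.198 for Lyve1, 0.476 for Stab1 and 0.881 for Stab2. Neither Pecam1 nor Clec4g was under 0.1 after Benjamini-Hochberg adjustment over the 16 exact tests of members. None of the 8 passed an adjusted p of 0.1 by edgeR (quasi-likelihood, adjusted by Benjamini-Hochberg), nor did any by DESeq2 or limma-voom, by which 5 and 4 were lower at an unadjusted p under 0.05. Of all genes tested, edgeR called 2, or 0.0140%, Asah1 and Sod1 (Sod1 was named after its value was seen), and DESeq2 called 12. Less RNA of these genes per endothelial cell and fewer endothelial cells cannot be told apart in whole liver.

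Pecam1 (chr11:106654217-106750628, minus strand, GRCm38) encodes the junctional adhesion molecule CD31. It was 13.5, 15.7, 11.1, 15.8 and 13.9 CPM in ASAH+ and 17.3, 16.8, 26.6 and 17.4 CPM in ASAH- Etoh-Dox mice. Every ASAH+ mouse was below every ASAH- mouse, and ASAH- mouse 3 was far above the rest of its group. Groups did not overlap, with the first lower, for 1 of the 8 members tested (Pecam1) and for 0.447% of all genes. They also did not overlap for Cavin2, but it was picked for low counts in these ASAH+ mice, and nothing is read from that. The log2 fold change of Pecam1 was -0.48 (SE 0.15), with an exact permutation p of 0.00794 (two-sided), which is the lower limit for groups of 5 and 4. By edgeR's quasi-likelihood test the p was 0.00767 unadjusted and 1.00 after Benjamini-Hochberg adjustment over all genes. In ASAH+ Etoh mice it was 20.3, 15.1, 18.3 and 21.2 CPM, overlapping the ASAH- mice.

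Clec4g encodes a C-type lectin of sinusoidal endothelium. It was 32.5, 32.7, 27.4, 35.1 and 32.2 CPM in ASAH+ and 35.6, 32.3, 59.9 and 42.0 CPM in ASAH- Etoh-Dox mice. ASAH- mouse 2 lay among the ASAH+ mice, and 17 of 20 pairs of mice were lower in ASAH+. Its log2 fold change was -0.41 (SE 0.16), with an exact permutation p of 0.0317 and an edgeR quasi-likelihood p of 1.00 after Benjamini-Hochberg adjustment. Fcgr2b encodes the inhibitory Fc receptor that takes up small immune complexes in these cells. It was 30.5, 34.2, 26.2, 36.5 and 31.7 CPM in ASAH+ and 38.4, 29.0, 54.3 and 45.1 CPM in ASAH- mice, with a log2 fold change of -0.39 (SE 0.17) and 16 of 20 pairs lower. Of its 5609 words of 31 bases, 5.78% also occur in transcripts of other genes, 233 of them in Fcgr3, and with both genes summed, a setting chosen after seeing the data, the log2 fold change was -0.33. Groups overlapped for both genes.

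Kdr, the receptor VEGFR2, was 23.1, 25.1, 21.9, 34.5 and 30.8 CPM in ASAH+ and 31.8, 27.5, 39.5 and 37.4 CPM in ASAH- Etoh-Dox mice, a log2 fold change of -0.33 (SE 0.15). Oit3, a zona pellucida domain protein used as a marker of these cells, was 17.0, 16.5, 12.5, 19.8 and 18.9 CPM in ASAH+ and 21.0, 17.5, 32.6 and 21.0 CPM in ASAH- mice, a log2 fold change of -0.44 (SE 0.19). In both genes the groups overlapped, and 17 of 20 pairs of mice for Kdr and 18 of 20 for Oit3 were lower in ASAH+. The adjusted p was 1.00 for each by edgeR (quasi-likelihood, adjusted by Benjamini-Hochberg).

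Of the hyaluronan and scavenger receptors, Stab1, Stab2 and Lyve1, 0 passed an unadjusted p of 0.05 in this comparison. Stab2, the hyaluronan clearance receptor, was 31.2, 31.8, 30.4, 38.1 and 31.3 CPM in ASAH+ and 28.7, 26.4, 59.7 and 31.3 CPM in ASAH- Etoh-Dox mice. Only 7 of 20 pairs of mice were lower in ASAH+, with a log2 fold change of -0.16 (SE 0.20). Without ASAH- mouse 3, which was at 59.7 CPM, the log2 fold change was 0.18, so that the direction of Stab2 rests on this mouse. Over all alternatives Stab2 lay from -0.29 to 0.18. Stab1, a related scavenger receptor, was 36.0, 27.5, 24.5, 35.8 and 35.4 CPM in ASAH+ and 34.3, 29.4, 42.7 and 32.5 CPM in ASAH- mice, a log2 fold change of -0.12 (SE 0.14) with 11 of 20 pairs lower, and from -0.20 to -0.01 over all alternatives. Lyve1, a hyaluronan receptor, was 6.64, 8.97, 4.30, 6.62 and 5.86 CPM in ASAH+ and 9.95, 4.86, 12.8 and 8.69 CPM in ASAH- mice, a log2 fold change of -0.48 (SE 0.29) with 15 of 20 pairs lower, and from -0.69 to -0.27 over all alternatives. For each of the 3 the value nearest 0 or above it came without ASAH- mouse 3. Lyve1 varied most between mice of a group, with an SD of 0.50 on the log2 scale against a median of 0.24 over all genes tested.

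ASAH- Etoh-Dox mouse 3 was above the mean of its group for 9 of 10 members. Without it, 1 of the 8 members (Pecam1) was lower at an unadjusted p under 0.05 in place of 5, with log2 fold changes of -0.29 for Pecam1, -0.20 for Clec4g, -0.24 for Fcgr2b, -0.23 for Oit3, -0.25 for Kdr, -0.27 for Lyve1, -0.01 for Stab1 and 0.18 for Stab2, and the median over the 8 members was -0.23. Without ASAH+ Etoh-Dox mouse 3, the lowest of its group for all 10 members, the count was also 1. It was 2 without ASAH+ Etoh-Dox mouse 1, and 3 without ASAH+ Etoh-Dox mouse 2 or without ASAH- mouse 4. Of all genes, 1.13% were lower at this level without ASAH- mouse 3 and 2.57% without ASAH- mouse 4. The share was 1.82%, 2.31% and 1.53% without ASAH+ Etoh-Dox mouse 1, 2 and 3.

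The contrast that picked Ptprb and Cavin2, ASAH+ mice with against without Dox, is within 1 genotype and is given as a description. Dox also induced the transgene in these mice (Asah1 log2 fold change 8.10, SE 0.21). Dox and induction therefore cannot be told apart in this contrast. The log2 fold change was -0.66 (SE 0.29) for Lyve1, -0.62 (SE 0.19) for Oit3, -0.60 (SE 0.17) for Fcgr2b and -0.51 (SE 0.16) for Clec4g. It was -0.45 (SE 0.15) for Kdr, -0.42 (SE 0.16) for Pecam1, -0.08 (SE 0.14) for Stab1 and 0.04 (SE 0.20) for Stab2. The stabilins had the 2 log2 fold changes nearest 0, and Stab2 was -0.02 without ASAH+ Etoh-Dox mouse 4 and Stab1 -0.01 without mouse 3 and -0.17 without ASAH+ Etoh mouse 2. The groups did not overlap for 4 members (Ptprb, Cavin2, Clec4g and Fcgr2b), beside 1.49% of all genes, and nothing is read from this count. In ASAH+ Etoh mice Clec4g was 55.2, 38.2, 45.2 and 43.8 CPM and Fcgr2b 56.8, 36.6, 49.3 and 50.7 CPM. Kdr was 43.5, 32.1, 35.3 and 37.1 CPM, Oit3 30.1, 18.3, 27.9 and 28.0 CPM and Lyve1 12.7, 5.62, 9.74 and 13.1 CPM in these mice. Mouse 2 was the lowest of the 4 for each of these 5 genes. Stab1 was 34.8, 27.5, 35.7 and 37.1 CPM and Stab2 29.3, 29.4, 35.4 and 32.3 CPM, and both overlapped the ASAH+ Etoh-Dox mice.

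ASAH- Etoh-Dox mice and ASAH+ Etoh mice both lacked induced transgene and differed in Dox and genotype. Each was the control group of a comparison above, so the 3 comparisons share mice. For the 8 members tested, the log2 fold changes lay between -0.21 (Fcgr2b) and 0.21 (Stab2), and 0 of 8 were lower or higher at an unadjusted p under 0.05, while 4.11% of all genes were lower and 5.08% higher. The exact permutation p was 0.371 for Fcgr2b and larger for the other 7. None was called by edgeR (quasi-likelihood, adjusted by Benjamini-Hochberg), by DESeq2 or by limma-voom (0 at an unadjusted p under 0.05 by either). Of all genes, edgeR called 2, or 0.0140% (mt-Co2 and mt-Co3, named after their values were seen), and DESeq2 called 150. The groups did not fully separate, lower in ASAH- mice, for any of the 10 members, while 2.40% of all genes did. Without ASAH- mouse 3, 3 of the 8 were lower at an unadjusted p under 0.05 (Clec4g, Fcgr2b and Oit3, with log2 fold changes of -0.32, -0.37 and -0.39). In that fit 2.84% of all genes were lower. Over all alternatives the log2 fold change lay from -0.37 to -0.07 for Fcgr2b, -0.39 to -0.07 for Oit3 and -0.20 to -0.03 for Kdr, and on both sides of 0 for the other 5.

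**Figure D3:**
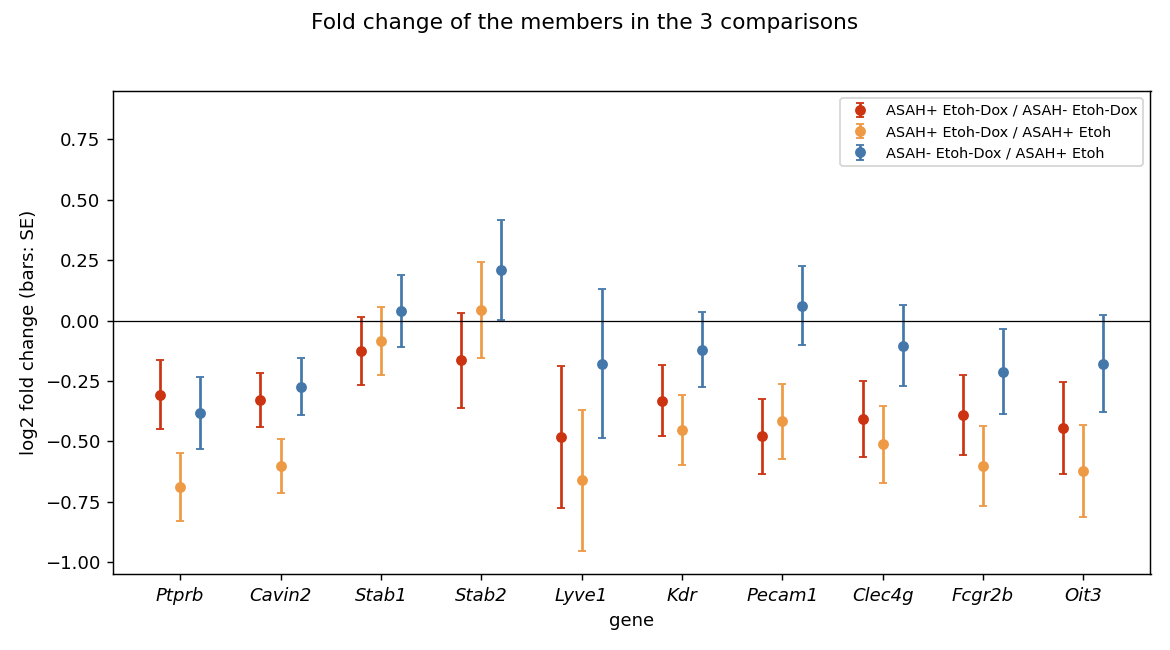
Log2 fold change (points) and standard error (bars) of each member in the 3 comparisons, from 1 fit over 13 mice. The red and orange points share the ASAH+ Etoh-Dox mice, and in those 2 comparisons Stab1 and Stab2 lie closest to 0.

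Levels of the members followed each other across the 13 mice. The correlation of a member with the mean standardized level of the other 9 was 0.982 for Oit3, 0.970 for Fcgr2b and 0.942 for Clec4g (Pearson, n = 13 mice). Over all 13 mice it was lowest for Stab2 (0.449), Cavin2 (0.626) and Stab1 (0.712). Without the 2 mice farthest from the median it was 0.627 for Stab2, 0.864 for Cavin2, 0.427 for Stab1 and 0.972 for Fcgr2b, and Lyve1, Pecam1 and Kdr were then below Cavin2. Spearman correlations over 13 mice were 0.335 for Stab2, 0.527 for Stab1 and 0.786 for Cavin2. Within groups, after each group mean was removed, the correlation was 0.969 for Oit3 and 0.263 for Cavin2. All members come from the same libraries, so these values are descriptions.

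**Figure D4:**
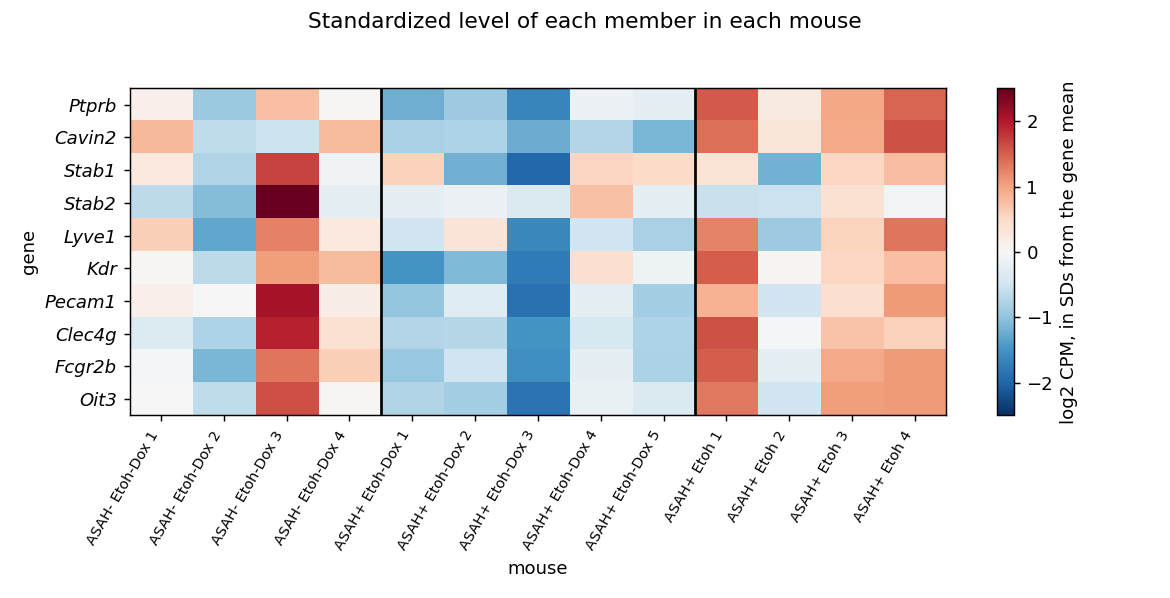
Log2 CPM of each member in each mouse, in SDs from the gene's mean over 13 mice (red high, blue low), with lines between the groups. In each group 1 mouse (ASAH- Etoh-Dox 2, ASAH+ Etoh-Dox 3 and ASAH+ Etoh 2) was below the group mean for all 10 members.

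Of 10960 genes outside the lists, the 6 with levels most like the mean of the 10 members were Aqp1 (r = 0.932, Spearman 0.907), Npr1 (r = 0.925, Spearman 0.918), Cd300lg (r = 0.923, Spearman 0.912), Gpihbp1 (r = 0.902, Spearman 0.885), Elk3 (r = 0.899, Spearman 0.846) and Cnr2 (r = 0.898, Spearman 0.841), over 13 mice. Their correlation within groups was 0.837 to 0.924. Aqp1, a water channel, and Gpihbp1, the endothelial anchor of lipoprotein lipase, are known in endothelium.

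Other genes of the sinusoidal and general endothelium are given for ASAH+ against ASAH- Etoh-Dox mice as log2 fold changes. Cd209b, Sele, Apln, Bmx, Cavin4, Cav3, Pgf and Sh2d2a had too few counts to be tested. Of 27 other sinusoidal genes tested, 26 had a log2 fold change below 0, the median was -0.26, and 2 were lower and 0 higher at an unadjusted p under 0.05, beside 1.57% lower and 1.29% higher among all genes. The count was 0 without ASAH- Etoh-Dox mouse 3, 1 without ASAH- Etoh-Dox mouse 4 or ASAH+ Etoh-Dox mouse 2, 3 or 5, 4 without ASAH+ Etoh mouse 2 and 8 without ASAH- Etoh-Dox mouse 2, and the median without ASAH- mouse 3 was -0.16. The 2 were Gpr182, a scavenging chemokine receptor, at -0.46 (SE 0.17) and Eng, a TGF-beta coreceptor, at -0.34 (SE 0.15). Cd36, a fatty acid and scavenger receptor, was -0.27 (SE 0.31), Ehd3 -0.25 (SE 0.16) and Ushbp1 0.02 (SE 0.11). Of 29 pan-endothelial genes, 27 were below 0, the median was -0.26, and 5 were lower and 0 higher at this level, with Tek, the Tie2 receptor, at -0.41 (SE 0.15). The others were Flt1, Esam, Ecscr and Rasip1, named after their values were seen. The count was 0 without ASAH- Etoh-Dox mouse 3, 3 without ASAH+ Etoh-Dox mouse 2 or 3 and 9 without ASAH- Etoh-Dox mouse 2, and the median without ASAH- mouse 3 was -0.11. Cdh5 (VE-cadherin) was -0.39 (SE 0.20), Egfl7 -0.30 (SE 0.15), Nrp1 -0.04 (SE 0.23) and S1pr1 0.11 (SE 0.14).

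Of 12 genes of continuous or large vessels, 9 were below 0 with a median of -0.21, and 0 were lower or higher at an unadjusted p under 0.05 in ASAH+ against ASAH- Etoh-Dox mice. The median was 0.06 without ASAH- mouse 3, and the genes lower were 1 without ASAH- Etoh-Dox mouse 1, 2 or 4 or ASAH+ Etoh-Dox mouse 2 or 4 or ASAH+ Etoh mouse 2 and 2 without ASAH+ Etoh mouse 4. They were 1 by DESeq2, 1 by limma-voom and 2 with the groups compared alone. Plvap, a diaphragm protein of capillaries, was -0.21 (SE 0.19), Ltbp4 -0.40 (SE 0.19) and the connexin Gja4 -0.39 (SE 0.26). Of 12 central vein and angiocrine genes, 11 were below 0 with a median of -0.26 and 0 past this level, and without ASAH- mouse 3 the median was -0.16. The genes lower were 1 without ASAH- Etoh-Dox mouse 1 or 2 or ASAH+ Etoh-Dox mouse 3 and 2 without ASAH- Etoh-Dox mouse 4. Ednrb was -0.23 (SE 0.16), Rspo3 -0.20 (SE 0.11), Wnt2 -0.52 (SE 0.29) and Kit -0.19 (SE 0.24). Rspo3 and Wnt2 encode signals that maintain pericentral hepatocytes.

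Partners of Cavin2, Ptprb and the scavenger receptors were read in the same comparison. These genes are not limited to endothelium, and Cd163 of the scavenger list is also among the Kupffer markers. In whole liver the values of these 3 lists are therefore not a measure of the endothelium, and the cells they come from were not tested. Of 8 caveola genes, 6 were below 0 with a median of -0.23 and 0 past an unadjusted p of 0.05. The median was -0.11 without ASAH- mouse 3, and the genes lower were 1 without ASAH- Etoh-Dox mouse 1, 2 or 4 or ASAH+ Etoh-Dox mouse 1, 2 or 4 or ASAH+ Etoh mouse 2. Cav2 was -0.33 (SE 0.16), Cavin3 -0.49 (SE 0.43), Pacsin2 0.15 (SE 0.11), Ehd1 -0.15 (SE 0.12) and Ehd4 0.05 (SE 0.14). Of 15 angiopoietin, VEGF and VE-PTP pathway genes, 9 were below 0 with a median of -0.03 and 0 past this level. This median ranged from -0.08 to 0.07 with 1 mouse left out, and the genes higher were 1 without ASAH- Etoh-Dox mouse 4. Vegfa, the ligand of Kdr, was 0.16 (SE 0.10), Ctnnd1 0.05 (SE 0.07), Grb2 -0.02 (SE 0.10) and Ptpn11 0.04 (SE 0.08). Of 18 scavenger and Fc receptor partners, 13 were below 0 with a median of -0.09, and 1 was lower and 0 higher past this level, beside 1.57% and 1.29% of all genes. This was Fcgr4 at -0.48 (SE 0.22) with an unadjusted p of 0.0498. The count was 0 without ASAH- Etoh-Dox mouse 1 or 3 or ASAH+ Etoh-Dox mouse 3, 4 or 5 or ASAH+ Etoh mouse 1, 2, 3 or 4 and 2 without ASAH+ Etoh-Dox mouse 2, and the median without ASAH- mouse 3 was -0.01. The count was also 0 when blocked on the replicate number, with Asah1 left out, with at least 10 counts in each mouse and with the groups compared alone. Fcgrt was -0.12 (SE 0.10), Ap2m1 -0.09 (SE 0.08) and Scarb2 0.05 (SE 0.10). In none of the 7 lists did a gene pass an adjusted p of 0.1 in edgeR (quasi-likelihood, adjusted by Benjamini-Hochberg).

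In ASAH- Etoh-Dox mice against ASAH+ Etoh mice, the medians of these lists, with their range over 13 fits that each leave out 1 mouse, were -0.09 (-0.17 to -0.01) for other sinusoidal genes, -0.00414 (-0.15 to 0.09) for pan-endothelial, -0.01 (-0.13 to 0.16) for large-vessel, 0.03 (-0.20 to 0.15) for central vein, 0.14 (0.07 to 0.21) for caveola, -0.02 (-0.08 to 0.01) for pathway genes and 0.18 (0.12 to 0.21) for scavenger partners, against 0.02 for all genes. The first 4 were lowest without ASAH- mouse 3, and highest without ASAH- mouse 2 (other sinusoidal and pan-endothelial) or ASAH+ Etoh mouse 4 (large-vessel and central vein). At an unadjusted p under 0.05, which 4.11% of all genes passed as lower and 5.08% as higher, each list had between 0 and 2 genes in either direction. With 1 mouse left out, each count above 0 fell to 0 and rose to at most 4. The scavenger genes higher were 0 without ASAH- mouse 3 and 4 without ASAH- mouse 4, the large-vessel genes higher 0 without ASAH- mouse 3 and 3 without ASAH+ Etoh mouse 4, and the other sinusoidal genes lower 0 without ASAH- mouse 2 and 3 without ASAH+ Etoh mouse 2. Plvap was 0.46 (SE 0.21), Ltbp4 0.46 (SE 0.20), Fcgrt 0.25 (SE 0.10), Fcgr4 0.56 (SE 0.24) and Ushbp1 0.29 (SE 0.12). In ASAH+ mice with against without Dox, described only, the medians with the same range were -0.39 (-0.44 to -0.27) for other sinusoidal, -0.20 (-0.30 to -0.13) for pan-endothelial, -0.07 (-0.18 to 0.08) for large-vessel, -0.24 (-0.37 to -0.05) for central vein, 0.02 (-0.05 to 0.04) for caveola, -0.02 (-0.05 to 0.06) for pathway genes and 0.06 (0.01 to 0.10) for scavenger partners. Those of pan-endothelial, large-vessel, central vein and pathway genes were highest without ASAH+ Etoh mouse 4, and that of scavenger partners lowest without ASAH+ Etoh-Dox mouse 1.

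**Figure D5:**
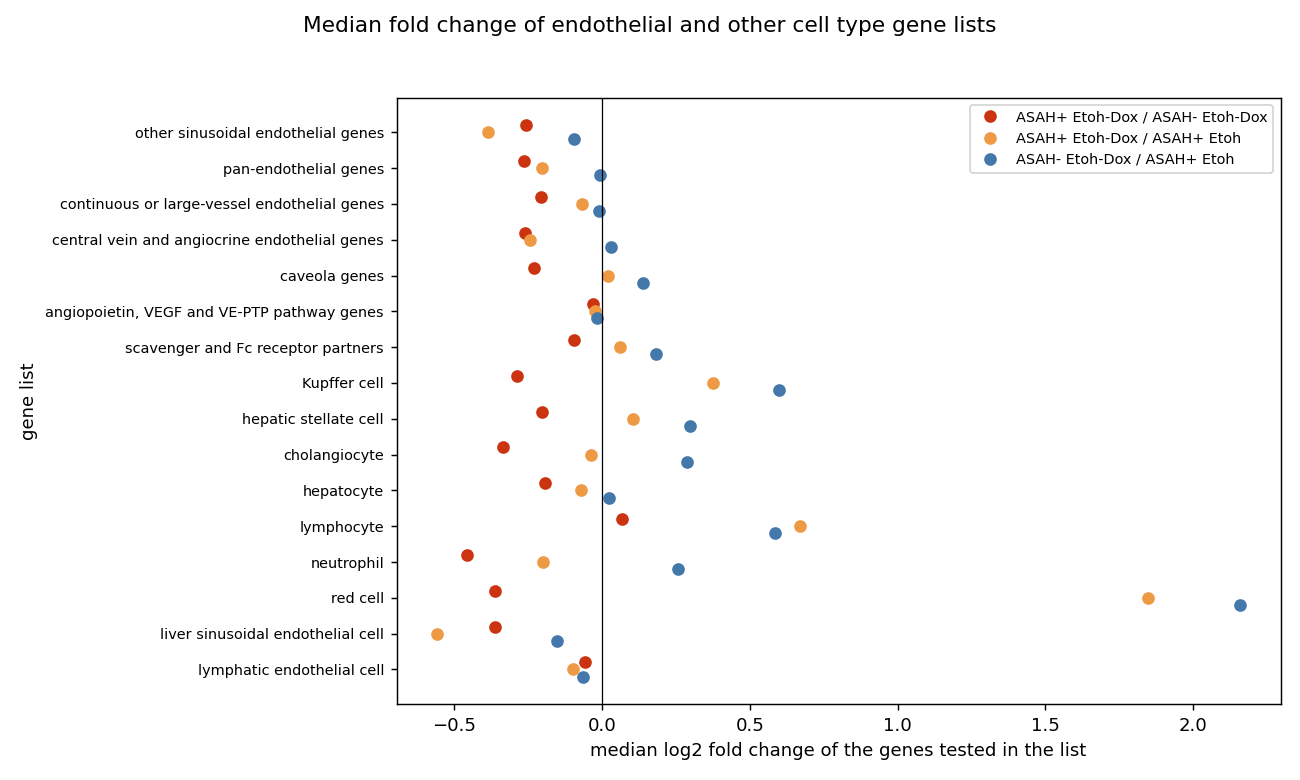
Median log2 fold change of the genes tested in each list, in the 3 comparisons (colours). All lists but that of lymphocytes lie left of 0 in ASAH+ against ASAH- Etoh-Dox mice (red), those of red cell and large-vessel genes only with ASAH- mouse 3 included, and those of pathway and lymphatic genes in 8 and 10 of 13 fits with 1 mouse left out. The Kupffer, stellate, lymphocyte, red cell, caveola and scavenger lists lie right of 0 in both comparisons with ASAH+ Etoh mice. With against without Dox, the caveola list turned to left of 0 in 6 of 13 such fits.

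Markers of other cell types were summed in the same mice. Summed over the 12 Kupffer cell markers, with Cd5l the most abundant, the level was 544, 547, 1083 and 677 CPM in ASAH- mice and 754, 765, 401, 616 and 412 CPM in ASAH+ Etoh-Dox mice. It was 511, 405, 471 and 482 CPM in ASAH+ Etoh mice, and ASAH- mouse 3, the highest of its group for 9 members, was also the highest for Kupffer markers. The 5 red cell genes, with Hbb-bs the most abundant, summed to 231, 752, 1714 and 215 CPM in ASAH- mice and 689, 241, 871, 355 and 646 CPM in ASAH+ Etoh-Dox mice, and to 135, 160, 175 and 192 CPM in ASAH+ Etoh mice. For the sum of the red cell genes, all 4 mice on Etoh without Dox were below every mouse on Etoh-Dox. The part of the Kupffer and red cell genes in the results on the members was not tested.

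All 12 hepatic stellate markers (most abundant Dcn) were below 0 in ASAH+ against ASAH- Etoh-Dox mice, with a median of -0.20. Of these, 3 were lower at an unadjusted p under 0.05 (Reln, Colec11 and Ecm1), beside 1.57% of all genes. All 12 Kupffer markers were below 0 with a median of -0.29 and 0 past this level. Without ASAH- mouse 3 the medians were -0.02 and -0.02. The stellate count was 1 without ASAH- Etoh-Dox mouse 3 or ASAH+ Etoh-Dox mouse 5, and the Kupffer count 3 without ASAH+ Etoh-Dox mouse 2. With the groups compared alone the stellate count was 1. The medians, with their range over the fits that each leave out 1 mouse, were -0.19 (-0.23 to -0.12) for 9 hepatocyte genes (most abundant Alb), -0.33 (-0.45 to -0.01) for 7 cholangiocyte genes (most abundant Spp1), 0.07 (-0.30 to 0.19) for 9 lymphocyte genes (most abundant Ptprc), -0.46 (-0.66 to -0.26) for 3 neutrophil genes (most abundant Csf3r) and -0.06 (-0.35 to 0.11) for 4 lymphatic endothelial genes (most abundant Prox1, which hepatocytes also express). The red cell median was -0.36 (-0.68 to 0.47), above 0 only without ASAH- mouse 3. Of the hepatocyte genes, 1 was lower at an unadjusted p under 0.05, and from 0 to 3 with 1 mouse left out (3 without ASAH- mouse 3). Of the 4 lymphatic genes, 1 was lower, also with any mouse left out. This was Reln, which is also in the stellate list and among the 3 stellate genes above, so it is not a separate result. Medians below 0 were seen outside the endothelium as well. In ASAH- Etoh-Dox mice against ASAH+ Etoh mice, 9 of 12 Kupffer, 5 of 12 stellate, 3 of 9 lymphocyte and 5 of 5 red cell genes were higher at this level, with medians of 0.60 (0.34 to 0.70), 0.30 (0.21 to 0.34), 0.58 (0.53 to 0.87) and 2.16 (1.25 to 2.45), while the 8 members tested had 0 and 5.08% of all genes were higher. The Kupffer and red cell medians were lowest without ASAH- mouse 3. The Kupffer count was 1 without ASAH- Etoh-Dox mouse 3, 2 without ASAH+ Etoh mouse 2, 3 without ASAH+ Etoh mouse 3, 4 without ASAH+ Etoh mouse 4 and 5 without ASAH- Etoh-Dox mouse 4, and 5 by limma-voom, without a count filter or blocked on the replicate number. The stellate count was 2 without ASAH- Etoh-Dox mouse 3 and 3 without ASAH+ Etoh mouse 2 or 3, and the lymphocyte count 0 without ASAH- Etoh-Dox mouse 3 or 4 or ASAH+ Etoh mouse 3 and 1 without ASAH- Etoh-Dox mouse 2 or ASAH+ Etoh mouse 1 or 4. The lymphocyte count was also 1 with at least 10 counts in each mouse. The red cell count was 4 without ASAH- mouse 3 and 5 with any other mouse left out. In the same comparison 1 hepatocyte and 1 lymphatic gene were higher, also with any mouse left out. The lymphatic gene was again Reln, which is also in the stellate list. Cd8a, Ly6g, Mpo, Retnlg and Pdpn had too few counts to be tested. None of the marker genes had a count of 0 in all mice.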

How the data were processed

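Whole-liver RNA from 13 mice was sequenced by the authors from poly(A)-selected, strand-specific libraries with single-end reads. Per the labels, the submitters' processing notes name Salmon and the build GRCm38.p6. The deposited table holds, for each gene, estimated counts that the authors summed from transcripts and gave as whole numbers, with no scaling to library size. Salmon divides reads that fit several transcripts by estimated abundance, so counts of near-identical genes are uncertain. Replicates are separate mice, and the counts of every pair of mice in a group differed by far more than sampling noise (chi-square 19.0 to 105 times its degrees of freedom over 22 pairs).

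Gene names were found for 53355 of 53392 identifiers. In edgeR 4.0.16 (R 4.3.3), low counts were removed with filterByExpr given the 3 groups, TMM factors were computed, and 1 robust quasi-likelihood model with a mean for each group took in all 13 mice. Adjusted p-values are Benjamini-Hochberg values over all genes tested, with a threshold of 0.1. A standard error is the size of the log2 fold change over the root of its F. For single members, exact permutation tests (two-sided) compared mean log2 CPM (prior count 2) in 16 tests. The exact p-values given are unadjusted, and none was under 0.1 after Benjamini-Hochberg adjustment over the 16 tests. The smallest p is 0.00794 for 5 mice against 4 and 0.0286 for 4 against 4. Levels per length used merged exons of GENCODE M21.

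The members and lists were chosen with earlier results of these data known. The genes named were the 10 members, Asah1, and from each of 7 lists the 3 with the highest level per kb, each past the threshold, and the 1 with the smallest p in each comparison that did not pick the members. The 6 genes most like the members were ranked by Pearson correlation among genes with a mean log2 CPM above 1. Any other gene was named once its values were known. Alternatives tried were DESeq2 1.42.0, limma-voom 3.58.1, DESeq2 size factors, Asah1 left out, a minimum of 10 counts in each mouse, no filter on counts, the groups compared alone, the replicate number as a block, and each mouse left out. Reads copied by PCR carry no molecular identifiers here, and counting error therefore understates technical error.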

Additional observations from a re-analysis of the deposited data

Results flagged for a closer look

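In 3 of the 30 combinations of member and group, the highest mouse lay far from the others of its group. For a single combination, chance gives this about 1 time in 20. The members share mice and followed each other, so the 30 are not independent, and no excess is read from the count. For Stab2, ASAH- Etoh-Dox mouse 3 was at 59.7 CPM, with a gap to the next mouse of 0.853 of the group's range, and ASAH+ Etoh-Dox mouse 4 was at 38.1 CPM, with a gap of 0.821. For Pecam1, ASAH- Etoh-Dox mouse 3 was at 26.6 CPM, with a gap of 0.938. The values without ASAH- Etoh-Dox mouse 3 are given with the results.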

How the results depend on the processing

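The median log2 fold change of the 8 members not picked on values was below 0 in all 21 alternatives in ASAH+ against ASAH- Etoh-Dox mice and in 20 of 21 in ASAH- Etoh-Dox mice against ASAH+ Etoh mice, where it was 0.02 without ASAH- mouse 2. No member tested passed an adjusted p of 0.1 in any alternative. The median of all 10 is a description, since Ptprb and Cavin2 were picked for low values in ASAH+ Etoh-Dox mice. With each mouse left out it ranged from -0.47 to -0.23 in ASAH+ against ASAH- Etoh-Dox mice, from -0.63 to -0.46 with against without Dox, and from -0.26 to -0.01 in ASAH- Etoh-Dox mice against ASAH+ Etoh mice. The genes called, 2 in each comparison, were 12, 95 and 150 in the same order by DESeq2. They were 1, 1 and 2 with Asah1 left out, which removes a called gene from the first 2 comparisons. With the groups compared alone, 1 gene was called in the first and 0 in the last, and without a count filter 4 genes in the second. With each mouse left out, the calls ranged from 1 to 2, from 2 to 8 and from 0 to 2. Where no reason is given, the cause was not tested.

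The replicate numbers belong to different mice, and same-numbered mice had a mean correlation of deviations of -0.0462 over 12 pairs, against 0.0126 for 44 others. Blocking on that number, 1 gene was called in the first comparison and 0 in the last, and 3 members in place of 5 were lower at an unadjusted p under 0.05 in the first. With each mouse left out, this count ranged from 1 to 6 in the first comparison and from 0 to 3 in the last. Over the same fits, the share of all genes lower ranged from 1.06% to 2.57% and from 2.84% to 6.18%.

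With 1 mouse left out, signs turned in 9 cases in the 2 comparisons tested, none of them called, and for Stab2 with against without Dox (-0.02 without ASAH+ Etoh-Dox mouse 4). Without ASAH- Etoh-Dox mouse 3, the log2 fold change was 0.18 for Stab2 in the first comparison, and -0.14 for Stab2, -0.12 for Pecam1 and -0.074 for Stab1 in the last. In the last comparison it was 0.0066 for Clec4g and 0.029 for Lyve1 without ASAH- mouse 2, 0.0011 for Clec4g without ASAH+ Etoh mouse 1, and -0.031 for Pecam1 and -0.047 for Stab1 without ASAH+ Etoh mouse 2. Over all mice left out, the last comparison ranged from -0.32 to 0.0066 for Clec4g, -0.39 to 0.029 for Lyve1, -0.12 to 0.13 for Pecam1, -0.074 to 0.11 for Stab1 and -0.14 to 0.34 for Stab2, and the first from -0.29 to 0.18 for Stab2. Depth set little limit for the members, with at least 119 counts in each mouse.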
